A study of Mus musculus with 8 samples.

Results

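The glutathione peroxidase genes were followed across cultured mouse hepatocytes with a deletion of the gene of ZIP8, a transporter of metal ions and selenite, that then received selenite or 1 of 3 metals. The 6 genes Gpx1, Gpx2, Gpx3, Gpx4, Gpx7 and Gpx8 were taken by name, by matching the Ensembl identifiers of the count files to the GENCODE M21 annotation of GRCm38, from 55450 gene identifiers in all. They were taken as a gene family and not by a cut on measured values, but with earlier results of these data known. All cells were primary hepatocytes of C57BL/6 mice at post-natal week 8, in serum-free medium with 10 µM dexamethasone. LSKO cells carried Alb-cre(+/+);Slc39a8(F/F), in which the albumin promoter drives Cre so that floxed Slc39a8, the gene of ZIP8, is removed in hepatocytes. WT cells carried Slc39a8(F/F), so the floxed allele was shared by every group. LSKO cells given 2 µM sodium selenite, manganese chloride, ferrous chloride or zinc chloride gave 1 RNA-seq library each, and untreated LSKO and untreated WT cells gave 2 libraries each, 8 libraries in all. The labels give 24 h for the treatments and the series description calls them overnight. How long untreated cells were cultured, and whether replicates came from separate animals, is not given in the sources used here, so p-values measure spread between these libraries, which may be technical.

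Glutathione peroxidases reduce hydrogen peroxide and lipid peroxides to water and alcohols, with glutathione as the usual electron donor. Gpx1 to Gpx4 encode selenoproteins, whose active site holds selenocysteine, an amino acid read from a TGA codon that would otherwise stop translation. When selenium is scarce, transcripts of some selenoproteins, Gpx1 foremost among them in rodent liver, are known to be degraded through nonsense-mediated decay, while others are spared. Gpx7 and Gpx8 encode enzymes of the endoplasmic reticulum with cysteine in place of selenocysteine, and need no selenium.

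That difference is visible in the coding sequence. After each name stand 27 bases of the GRCm38 coding strand centred on the active-site codon, which is in capitals, read 5′ to 3′. They are shown because the selenocysteine and cysteine forms part at this codon. In Gpx1 it is codon 47 of 201 (exon 1, chr9:108339439-108339465, plus strand). In Gpx2 it is codon 40 of 190 (exon 1, chr12:76795244-76795270, minus strand), in Gpx3 codon 73 of 226 (exon 2, chr11:54907244-54907270, plus strand), and in Gpx4 codon 129 of 253 (exon 3, chr10:80054725-80054751, plus strand). In Gpx7 it is codon 56 of 186 (exon 2, chr4:108403418-108403444, minus strand) and in Gpx8 codon 79 of 209 (exon 2, chr13:113045649-113045675, minus strand). The annotation marks the TGA codons as selenocysteine. The cysteine codons were placed by aligning the translated reading frames with that of Gpx1, whose TGA codon was scored as cysteine. That scoring favours a cysteine at this place. Codons and exons are numbered in the transcript with the longest coding region of each gene, and numbers may differ in its other transcripts.
Gpx1: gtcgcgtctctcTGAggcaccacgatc
Gpx2: gtggcgtcactcTGAggaacaactacc
Gpx3: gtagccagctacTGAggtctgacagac
Gpx4: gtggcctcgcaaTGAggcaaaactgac
Gpx7: gtagctagcgaaTGTggcttcacagac
Gpx8: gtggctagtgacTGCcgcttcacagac
TGA stands in the 4 selenocysteine forms, and the cysteine codons TGT and TGC stand in the same place in Gpx7 and Gpx8.

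Depth was 19943899 to 27731054 reads in genes per library. Slc39a8 had 30 to 75 reads in the treated LSKO libraries and 185 and 51 in the untreated ones, against 367 and 356 in the WT libraries, so LSKO replicate 1 kept more of the deleted gene's transcript than replicate 2. Results set against untreated LSKO cells are therefore also given without replicate 1 where the call or its direction differs. Genes took 72.2% of the reads of the manganese library and 39.3% to 42.1% of every other, and the strand setting of the counting is not given in the sources used here. Both untreated LSKO libraries had 0 reads set aside for low alignment quality, and 5244936 and 6831375 not aligned. The manganese library had 62 of low quality and 2819308 not aligned. The WT, iron, selenite and zinc libraries had 592678 to 680199 of low quality and 2344056 to 2933563 not aligned. These differences go with the untreated LSKO group, so comparisons with that group cannot tell them apart from treatment or genotype. None of the 6 members shares exon bases with another gene on either strand. All 8 hepatocyte markers were detected in every group, with Alb, Ttr and Apoa1 among them, but stellate, endothelial and Kupffer cell markers were also present. In bulk RNA of this kind fewer cells of a type and less RNA per cell cannot be told apart.

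All 6 members passed the filter of at least 80 reads summed over the libraries, and their levels spanned more than 3 orders of magnitude. Levels are given as normalized CPM, the CPM of reads in genes after scaling by TMM factors, and levels of different genes are compared only per kb of coding transcript. On that scale Gpx1, the main cytosolic peroxidase of liver, had 2770 normalized CPM per kb with selenite, 1170 ± 101 in untreated LSKO cells and 938 ± 47.8 in WT cells (SD, n = 2 each). Gpx4, which reduces lipid peroxides within membranes, followed with 584 with selenite, 386 ± 16.9 in untreated LSKO cells and 385 ± 23.3 in WT cells. These were the abundant forms.

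Gpx3, the enzyme secreted into plasma, had 14.9 normalized CPM per kb with selenite, 6.11 ± 1.66 in untreated LSKO cells and 3.04 ± 0.554 in WT cells (SD, n = 2 each). Gpx7 had 5.86 with selenite and 4.22 ± 0.0789 and 4.28 ± 0.0298 in untreated LSKO and WT cells. Gpx8 had 1.85 with selenite, 1.40 ± 0.232 in untreated LSKO cells and 2.48 ± 0.308 in WT cells. Gpx2, the peroxidase of the gut lining, had 1.71 with selenite, 0.791 ± 0.0475 in untreated LSKO cells and 0.436 ± 0.0191 in WT cells. The order of the 6 genes was Gpx1, Gpx4, Gpx3, Gpx7, Gpx8 and Gpx2 in untreated LSKO cells, whereas in WT cells Gpx7 stood above Gpx3, with WT replicates at 4.30 and 4.26 for Gpx7 and 3.44 and 2.65 for Gpx3. Gpx2 passed Gpx8 with zinc, at 1.76 against 1.29 normalized CPM per kb, and with iron, at 1.59 against 0.76, but this order rested on the length used. Per kb of all exons, which are 3222 bases for Gpx2 and 1048 for Gpx8, Gpx2 had 0.581 with zinc and 0.525 with iron, below Gpx8 at 1.28 and 0.76. Gpx5 and Gpx6 had at most 2 reads in any library and Gpx2-ps1 had 0 in each.

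With selenite 3 of the 6 members were called higher than in untreated LSKO cells and none lower. To be called, a gene needed an adjusted p under 0.05 in edgeR's quasi-likelihood test and a log2 fold change of more than 0.5 either way. Over all 15468 genes tested 7.89% were called higher and 9.67% lower. Gpx1, Gpx3 and Gpx4 were the members called, all of them selenocysteine forms. Without adjustment, p in the same test was under 0.05 for 5 members, all higher, with the cysteine form Gpx7 among them. Over all genes that share was 19.8% higher and 19.9% lower. The median log2 fold change of the 6 members was 0.85, beside -0.01 over all genes. These medians were not matched for transcript length or GC content, which went with 33.2% of the variance of changes over 10880 genes. With both corrected, using summed exon length, the changes were 1.14 for Gpx1, 0.97 for Gpx2 and 1.20 for Gpx3. They were 0.69 for Gpx4, 0.27 for Gpx7 and -0.27 for Gpx8, with the same members called. The selenite library was the highest of the 8 for Gpx1, Gpx3, Gpx4 and Gpx7. The share of all genes that were highest in that library was not counted, so this only describes the members.

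Gpx1 had 2973 normalized CPM with selenite, against 1181 and 1335 in the untreated LSKO libraries. It had 1403 with manganese, 985 with iron and 1441 with zinc, and 1042 and 970 in the WT libraries. The selenite library thus stood at more than double any other, and the other 7 lay between 970 and 1441. Against untreated LSKO cells its log2 fold change was 1.24 (standard error 0.101, 95% interval 1.02 to 1.46, adjusted p = 2.47e-05, edgeR's quasi-likelihood test), or 2.36-fold. Without LSKO replicate 1 it was 1.10. Below selenite, the levels of Gpx1 with zinc and with manganese differed by less than the gap between the 2 untreated LSKO libraries, and so did those with iron and in WT cells.

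Gpx3 had 23.8 normalized CPM with selenite, from 482 reads, against 7.88 and 11.6 in the untreated LSKO libraries. It had 9.48 with manganese, 7.62 with iron and 6.39 with zinc, and 5.48 and 4.23 in the WT libraries. Selenite was again highest, at about double the higher LSKO library, and the manganese level lay between the LSKO replicates. With selenite the log2 fold change of Gpx3 was 1.28 (standard error 0.228, 95% interval 0.78 to 1.78, adjusted p = 0.00306, edgeR's quasi-likelihood test). Its untreated LSKO replicates stood further apart than those of the other members called, and the change was 0.98 without LSKO replicate 1 and 1.56 without replicate 2. With all 4 untreated libraries joined as the control it was 1.70 and no longer called (adjusted p = 0.0853 from edgeR).

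Gpx4 had 581 normalized CPM with selenite, against 372 and 396 in the untreated LSKO libraries. It had 500 with manganese, 406 with iron and 538 with zinc, and 399 and 367 in the WT libraries. Selenite, zinc and manganese stood above every untreated library and iron lay just above them. For Gpx4 the log2 fold change with selenite was 0.60 (standard error 0.0942, 95% interval 0.39 to 0.81, adjusted p = 0.00168, edgeR's quasi-likelihood test), less than that of Gpx1. It was 0.50 without LSKO replicate 1. Scaling by library totals alone, which lowers the median of all genes by 0.24, gave 0.36, or 0.60 relative to that shift, and no call.

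The reads of Gpx4 are uncertain because Gpx4-ps2, a transcribed processed pseudogene on chromosome 10 (45875291 to 45876086), matches it at 760 of 762 aligned bases, 99.7%. Gpx4-ps2 had 25.8 reads for every 100 of Gpx4 with selenite, against 18.7 and 19.7 in the untreated LSKO libraries. The ratio was 20.3 with manganese, 24.5 with iron and 25.3 with zinc, and 22.6 and 23.1 in the WT libraries. The 3 libraries with the lowest ratios also differed in the reads set aside for low alignment quality, with 62 for manganese and 0 for each untreated LSKO library, against 592678 to 680199 in the rest. The part of this difference in the Gpx4 values was not tested. With the reads of gene and pseudogene summed, the log2 fold change with selenite was 0.68 (adjusted p = 0.000906, edgeR).

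Gpx2 had 37 reads with selenite, or 1.83 normalized CPM (95% Poisson interval 1.29 to 2.52, counting error only). The untreated LSKO libraries had 20 and 22 reads, or 0.88 (0.54 to 1.36) and 0.81 (0.51 to 1.22) normalized CPM. Zinc gave 46 reads, iron 34 and manganese 32, and the WT libraries had 13 and 11. All 4 treated libraries stood above both untreated LSKO libraries, which stood above both WT libraries, but at these counts no step against untreated LSKO cells passed the test. With selenite Gpx2 was at a log2 fold change of 1.11 (standard error 0.427, 95% interval 0.17 to 2.06, adjusted p = 0.0781, edgeR's quasi-likelihood test). It was at 1.15 with zinc (adjusted p = 0.167) and 1.00 with iron (adjusted p = 0.159).

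**Figure D1:**
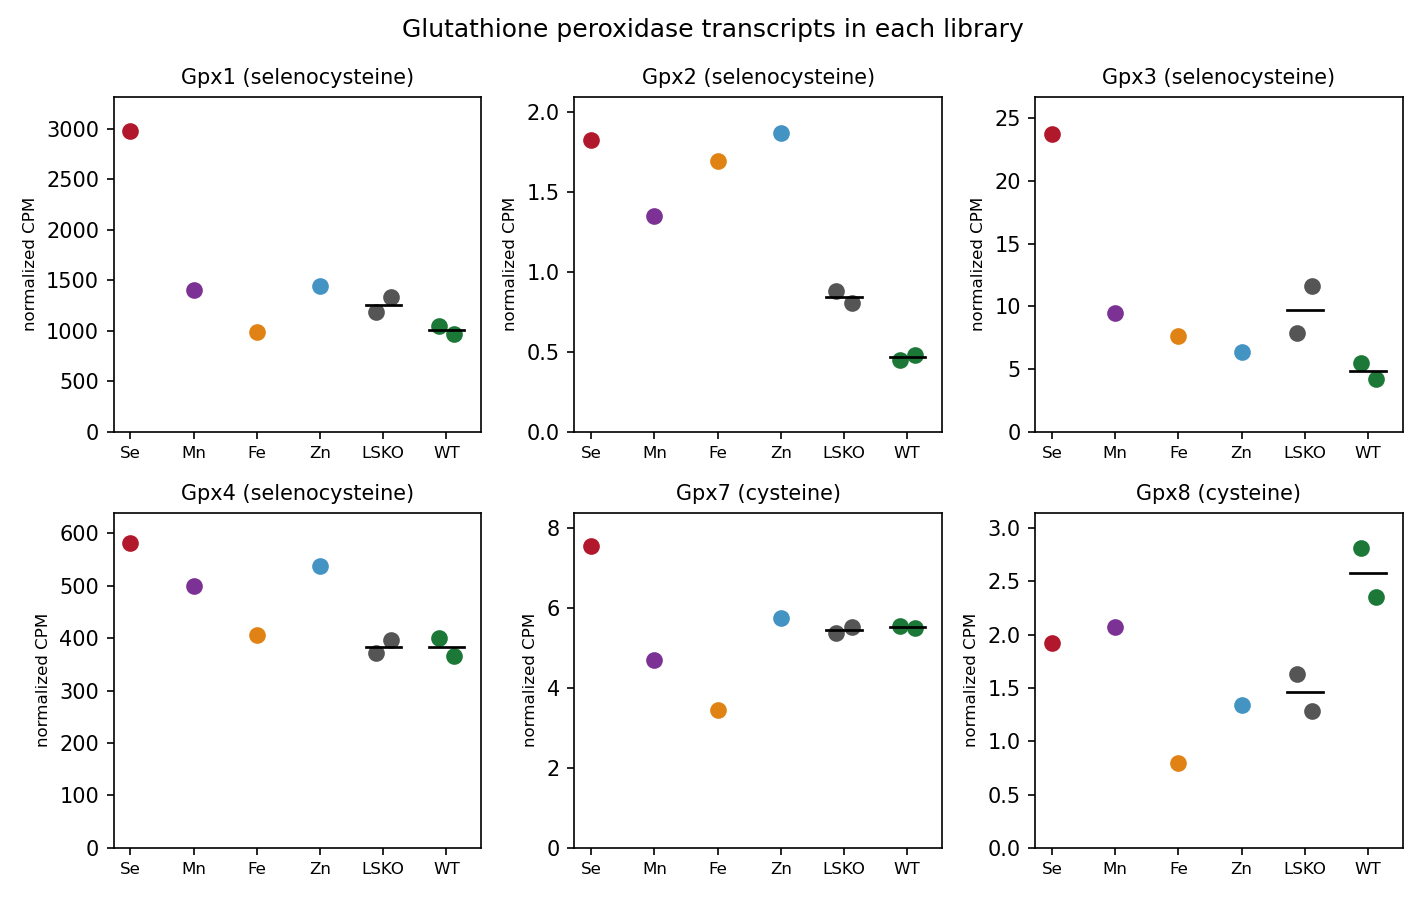
Normalized CPM of the 6 glutathione peroxidase genes in each library (dots), by group: LSKO cells with selenite (Se), manganese (Mn), iron (Fe) or zinc (Zn), untreated LSKO and untreated WT cells, with a black bar at the mean of each pair. Each panel has its own linear scale from 0. Selenite stands highest for Gpx1 (2973), Gpx3, Gpx4 and Gpx7, zinc for Gpx2 and WT for Gpx8.

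Neither cysteine form was called with selenite. Gpx7, which passes oxidizing equivalents to protein disulfide isomerases during protein folding, had 7.55 normalized CPM with selenite, against 5.37 and 5.51 in the untreated LSKO libraries. Its log2 fold change was 0.47 (standard error 0.212, 95% interval 0.00 to 0.94, adjusted p = 0.124, edgeR's quasi-likelihood test). That interval takes in the change of Gpx4, so a smaller response of Gpx7 than of Gpx4 was not shown. The selenite library was nevertheless the highest of the 8 for Gpx7.

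Gpx8, a membrane protein of the endoplasmic reticulum, had 1.93 normalized CPM with selenite, from 39 reads, against 1.63 and 1.29 in the untreated LSKO libraries, from 37 and 35 reads. Its log2 fold change was 0.41 (standard error 0.385, 95% interval -0.44 to 1.26, adjusted p = 0.464, edgeR's quasi-likelihood test). Once transcript length and GC content were corrected for, it was -0.23, so it has no settled direction. A difference between the selenocysteine and the cysteine forms as groups was not tested.

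None of the 6 members was called with manganese, iron or zinc against untreated LSKO cells, by edgeR's quasi-likelihood test or by DESeq2. The share of all genes called was 2.09% higher and 15.1% lower with manganese, 3.8% higher and 4.89% lower with iron, and 2.9% higher and 1.55% lower with zinc. The manganese library stood apart in its share of reads in genes, and the part of this in its calls was not tested. Without adjustment, p was under 0.05 for 1 member higher with manganese, for 1 higher and 2 lower with iron, and for 2 higher and 1 lower with zinc. Over all genes that share was 9.35% higher and 21.1% lower with manganese, 14.1% each way with iron, and 9.72% higher and 8.87% lower with zinc. The selenite, manganese, iron and zinc comparisons share both untreated LSKO libraries.

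Gpx4 passed the limit on p with zinc and with manganese, but not that on fold. It was at a log2 fold change of 0.49 with zinc (95% interval 0.28 to 0.70, adjusted p = 0.0132) and 0.38 with manganese (0.17 to 0.59, adjusted p = 0.0144), both from edgeR's quasi-likelihood test. Each misses a call only by its size. The zinc value was called when LSKO replicate 2 was left out (0.54) or the pseudogene's reads were added (0.56), and the manganese value with the correction for length and GC content (0.51). With iron Gpx4 was at 0.08 (-0.13 to 0.29).

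Gpx1 was at 0.16 with manganese (95% interval -0.07 to 0.39, adjusted p = 0.357, edgeR's quasi-likelihood test) and 0.20 with zinc (-0.03 to 0.43, adjusted p = 0.346). With iron it was at -0.35 (-0.59 to -0.12, adjusted p = 0.0539). None of the 3 was called, and the intervals leave out a change of the size seen with selenite.

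Gpx3 was at -0.05 with manganese (adjusted p = 0.93, edgeR's quasi-likelihood test) and -0.36 with iron (adjusted p = 0.391). The iron value was -0.63 without LSKO replicate 1 and -0.06 without replicate 2. With zinc it was at -0.62 (95% interval -1.19 to -0.04, adjusted p = 0.237), and at -0.87 when LSKO replicate 1, the lower of the untreated pair, was left out, which was called lower (adjusted p = 0.0107). Without LSKO replicate 2 it was at -0.29 (adjusted p = 0.624). The direction of Gpx3 with zinc was thus opposite to that with selenite, but the call depended on 1 library.

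The cysteine forms were lowest with iron. Gpx7 had 3.44 normalized CPM there and a log2 fold change of -0.66 against untreated LSKO cells (95% interval -1.19 to -0.14, adjusted p = 0.0958, edgeR's quasi-likelihood test). Gpx8 had 0.80 normalized CPM with iron, from 16 reads, and a log2 fold change of -0.86 (-1.86 to 0.14, adjusted p = 0.243). Neither was called.

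The iron library was also the lowest for markers of other liver cells. The summed level of 10 stellate cell and fibroblast markers was 20 normalized CPM with iron, against 50.7 and 46.5 in the untreated LSKO libraries, and 4 of the 10 were called lower. The 8 markers of sinusoidal endothelium summed to 84.0 with iron, against 170 and 134, with 7 of 8 called lower, and the 8 of Kupffer cells and macrophages to 69.0, against 94.7 and 114, with 4 of 8 called lower. None of these markers was at 0 in every library, and their part in the Gpx7 and Gpx8 values was not tested. With manganese Gpx7 was at -0.21 (adjusted p = 0.586) and Gpx8 at 0.52 (adjusted p = 0.403), and with zinc they were at 0.08 (adjusted p = 0.883) and -0.11 (adjusted p = 0.912), by the same test in edgeR. Without LSKO replicate 1 the value of Gpx8 with zinc was 0.06.

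**Figure D2:**
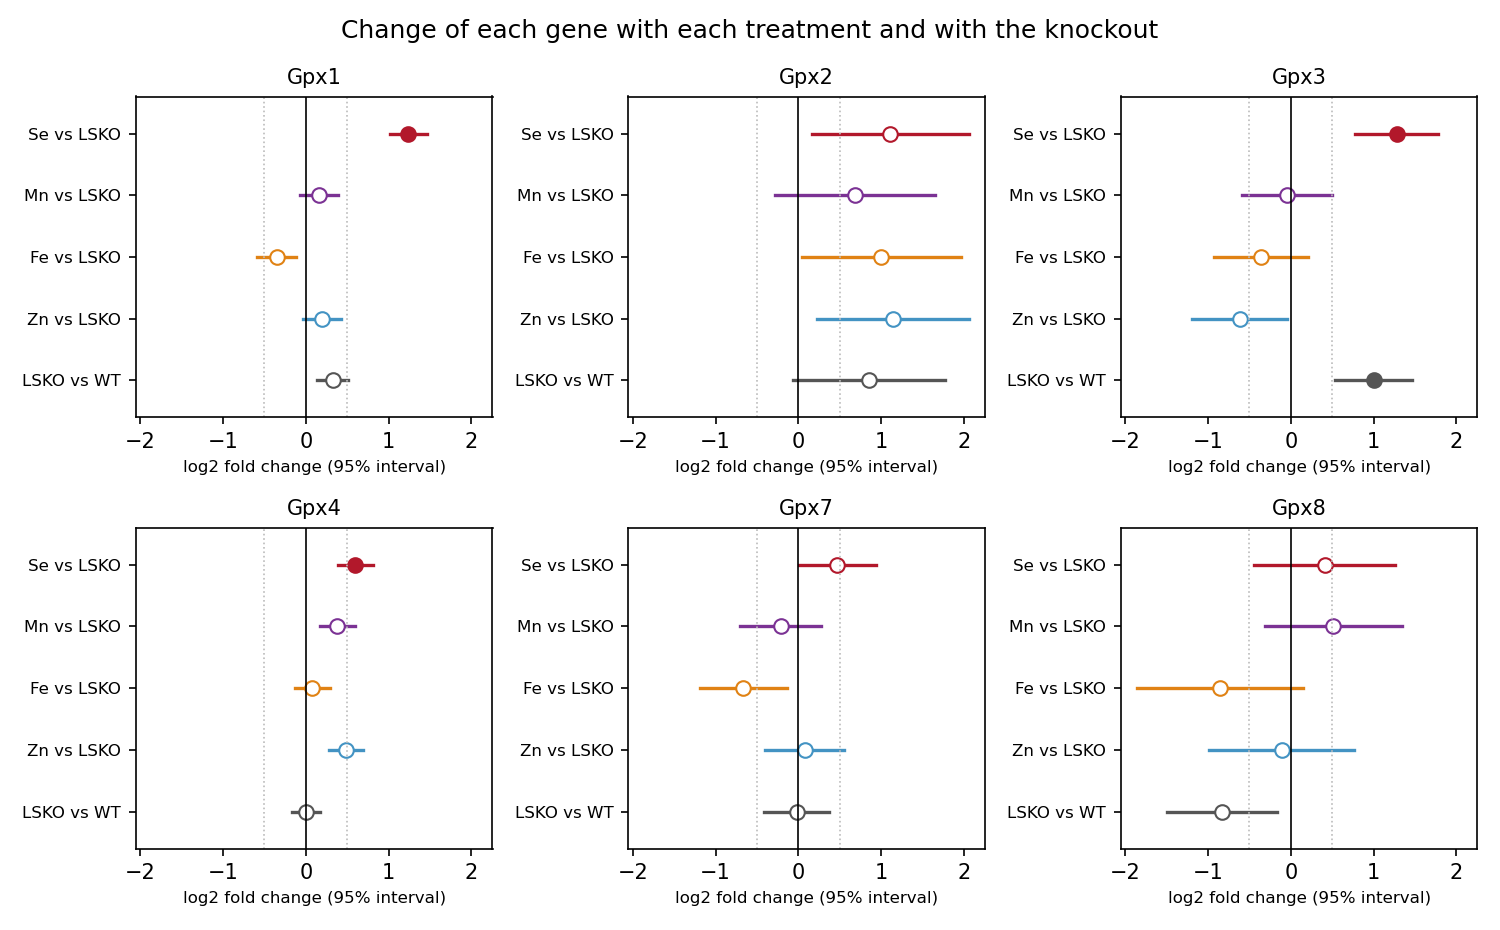
Log2 fold change of each glutathione peroxidase gene (dots) with its 95% interval (lines) for selenite, manganese, iron and zinc against untreated LSKO cells and for untreated LSKO against WT cells. Filled dots are called, dotted lines mark the limit of 0.5, and the filled dots are Gpx1 (1.24), Gpx3 (1.28) and Gpx4 (0.60) with selenite and Gpx3 (1.00) in LSKO against WT.

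Selenite was next set against each other metal directly, where no untreated LSKO library enters the difference. Each side then holds 1 library, whose spread was taken to be that of the WT and LSKO pairs. Against manganese 2 of the 6 members were called higher, beside 19% of all genes called higher and 9.53% lower. Here too the part of the manganese library's share of reads in genes was not tested. Against iron 4 members were called higher (12.3% of all genes higher, 12.5% lower), and against zinc 2 members (0.95% higher, 1.97% lower). No member was called lower in these 3 comparisons.

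Gpx1 and Gpx3 were called in each. Gpx1 had a log2 fold change of 1.08 against manganese (95% interval 0.81 to 1.35, adjusted p = 4.58e-05), 1.59 against iron (1.32 to 1.87, adjusted p = 0.000102) and 1.04 against zinc (0.78 to 1.31, adjusted p = 0.00918), all by edgeR's quasi-likelihood test. For Gpx3 it was 1.33 against manganese (0.72 to 1.94, adjusted p = 0.00365), 1.64 against iron (1.01 to 2.27, adjusted p = 0.00211) and 1.89 against zinc (1.26 to 2.53, adjusted p = 0.0185). Against zinc both calls were lost when either WT library was left out, although the changes were then 1.00 and 1.85. The spread came from the LSKO pair alone in those fits. Without either LSKO library it came from the WT pair alone, and with the same changes both genes were called, with adjusted p of 7.43e-16 and 6.29e-16 for Gpx1 in edgeR.

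Gpx4 did not separate selenite from zinc or manganese. Its log2 fold change was 0.11 against zinc (95% interval -0.14 to 0.36, adjusted p = 0.584, edgeR's quasi-likelihood test) and 0.22 against manganese (-0.03 to 0.46, adjusted p = 0.16), and with library totals alone it was -0.05 and -0.02, or 0.11 and 0.22 relative to the shift of all genes. Against iron it was 0.52 (0.27 to 0.76, adjusted p = 0.00618), just past the fold limit, and it was not called when any 1 untreated library was left out (0.49), with TMM factors from genes with no exon opposite another gene (0.49, adjusted p = 0.00785) or with library totals alone (0.30, or 0.52 relative to the shift of all genes).

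Gpx7 was called higher with selenite than with iron, at 1.14 (95% interval 0.55 to 1.72, adjusted p = 0.00929, edgeR's quasi-likelihood test). DESeq2 gave 1.12 and no call (adjusted p = 0.076). Gpx8 was at 1.27 against iron (0.16 to 2.38, adjusted p = 0.0793). In the same comparison 4 of 10 stellate, 3 of 8 endothelial and 5 of 8 Kupffer cell markers were called higher, and their part in the Gpx7 value was not tested. Against manganese Gpx7 was at 0.68 (0.13 to 1.24, adjusted p = 0.058), and it was called, at 0.73 (adjusted p = 0.0442), when TMM factors came from genes with no exon opposite another gene. Gpx2 did not differ beyond its error between selenite and zinc, with -0.04 (-1.06 to 0.99, adjusted p = 0.972), or between selenite and iron, with 0.11 (-0.95 to 1.16, adjusted p = 0.886).

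**Figure D3:**
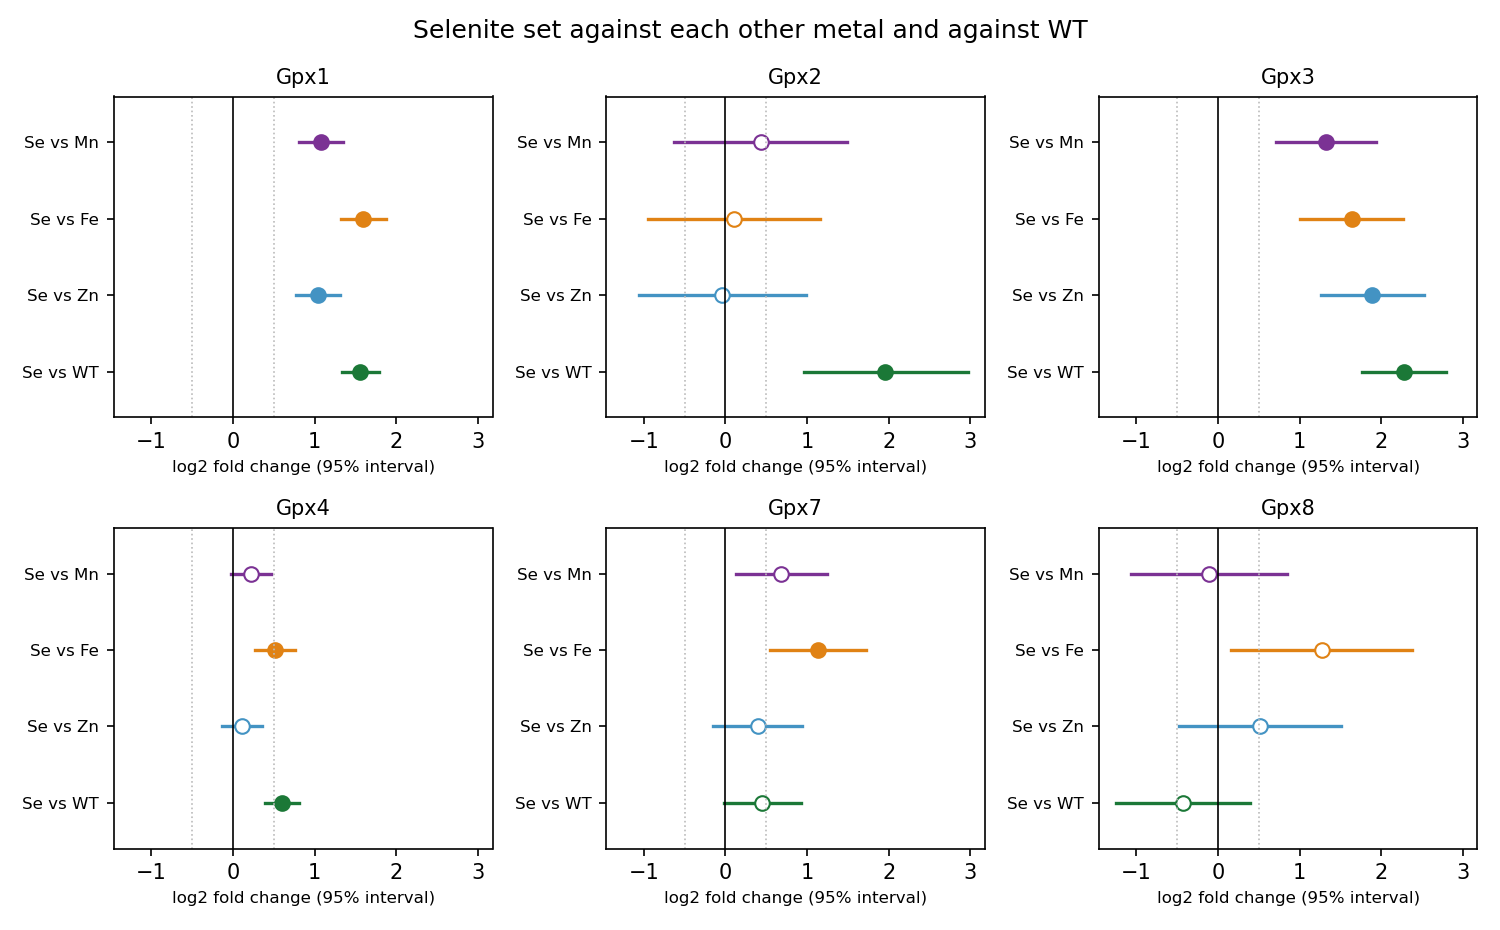
Log2 fold change of each glutathione peroxidase gene (dots) with its 95% interval (lines) for selenite-treated LSKO cells against LSKO cells given manganese, iron or zinc and against untreated WT cells. Filled dots are called and dotted lines mark the limit of 0.5. Gpx1 and Gpx3 are filled in all 4 rows. Gpx4 is filled against iron (0.52) and WT (0.60), Gpx7 against iron (1.14) and Gpx2 against WT (1.96).

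Untreated LSKO cells were also set against untreated WT cells, which by their label lack Cre as well as the deletion. Gpx3 was the 1 member called, higher in LSKO cells, beside 6.74% of all genes called higher and 3.7% lower. It had 7.88 and 11.6 normalized CPM in the LSKO libraries, against 5.48 and 4.23 in the WT libraries. Its log2 fold change was 1.00 (95% interval 0.54 to 1.47, adjusted p = 0.00959, edgeR's quasi-likelihood test). It was 1.23 without WT replicate 1 (adjusted p = 0.0686) and 0.85 without WT replicate 2 (adjusted p = 0.126), so the call depended on having both WT libraries.

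Gpx1 had 1181 and 1335 normalized CPM in the untreated LSKO libraries, against 1042 and 970 in the WT libraries. Its log2 fold change of 0.32 (95% interval 0.13 to 0.51, adjusted p = 0.0285, edgeR's quasi-likelihood test) was under the fold limit. By the same test Gpx4 and Gpx7 were at 0.00 (-0.17 to 0.18, adjusted p = 0.986) and -0.02 (-0.41 to 0.37, adjusted p = 0.958). Gpx7 was at 0.03 without LSKO replicate 1.

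Gpx8 had 1.63 and 1.29 normalized CPM in the untreated LSKO libraries, against 2.81 and 2.35 in the WT libraries. Its log2 fold change was -0.84 (95% interval -1.50 to -0.17, adjusted p = 0.0897, edgeR's quasi-likelihood test), which was not called. With no filter on low counts it was -0.85 and called (adjusted p = 0.0474). Gpx2 was at 0.85 (-0.07 to 1.77, adjusted p = 0.206).

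Markers of cell identity differed between the genotypes as well. The 8 hepatocyte markers summed to 28000 and 35700 normalized CPM in the untreated LSKO libraries, against 20400 and 19300 in the WT libraries, and 7 of 8 were called higher. Most of these sums was Alb, with 25120 and 31470 against 18600 and 17690. The 8 endothelial markers summed to 170 and 134, against 204 and 216, with 1 of 8 called lower. Of 8 Kupffer cell markers 3 were called higher, and of 10 stellate markers 1 was called higher and 1 lower. Gpx1 and Gpx3 stood higher, and Gpx8 lower, in the same LSKO libraries, and the part of cell makeup in these values was not tested.

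Set against WT cells, selenite-treated LSKO cells differ in both genotype and treatment, which cannot be told apart. Here 4 of the 6 members were called higher, all the selenocysteine forms, beside 13.8% of all genes called higher and 12.9% lower. By edgeR's quasi-likelihood test the log2 fold change was 2.28 for Gpx3 (95% interval 1.76 to 2.80, adjusted p = 0.000109) and 1.56 for Gpx1 (1.34 to 1.79, adjusted p = 1.4e-05). Gpx4 was at 0.60 (0.39 to 0.81, adjusted p = 0.000863), the size it had against untreated LSKO cells, and with library totals alone it was 0.33, or 0.60 relative to the shift of all genes, and not called.

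Gpx2 was called against WT only, at 1.96 (95% interval 0.96 to 2.97, adjusted p = 0.00677, edgeR's quasi-likelihood test), from 37 reads with selenite against 13 and 11 in the WT libraries, but DESeq2 did not call it (adjusted p = 0.0882). Gpx7 was at 0.45 (-0.02 to 0.92, adjusted p = 0.119) and Gpx8 at -0.43 (-1.25 to 0.39, adjusted p = 0.396). Gpx8 was the 1 member whose selenite level lay under both WT libraries, and with the correction for length and GC content it was called lower, at -1.11 (adjusted p = 0.0493). All 8 hepatocyte markers were called higher and 7 of 8 endothelial markers lower in this comparison, with 4 of 8 Kupffer cell markers called higher and, of 10 stellate markers, 5 called lower and 1 higher. The part of these in the member values was not tested.

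Ratios of 2 genes within a library do not depend on its scaling. Gpx1 had 512 reads for every 100 of Gpx4 with selenite, against 318 and 337 in the untreated LSKO libraries. The ratio was 281 with manganese, 243 with iron and 268 with zinc, and 261 and 264 in the WT libraries. The selenite library was the highest by far, and the untreated LSKO libraries stood above every other one, so the balance of the 2 abundant forms leaned further to Gpx1 with selenite than with any metal. Gpx1 made up 82.8% of the reads of the 6 genes with selenite, against 75.3% and 76.3% in untreated LSKO cells and 71.6% and 71.9% in WT cells. Together the 6 genes took 0.311% of all reads in genes with selenite, against 0.163% and 0.177% in untreated LSKO cells and 0.151% and 0.143% in WT cells.

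Between the cysteine forms, Gpx8 had 25.5 reads for every 100 of Gpx7 with selenite, against 30.3 and 23.3 in the untreated LSKO libraries. It had 44.1 with manganese, 23.2 with iron and 23.4 with zinc, and 50.6 and 42.9 in the WT libraries. Selenite lay within the untreated pair. The WT and manganese libraries stood apart from the other 5, and these ratios were given no test.

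**Figure D4:**
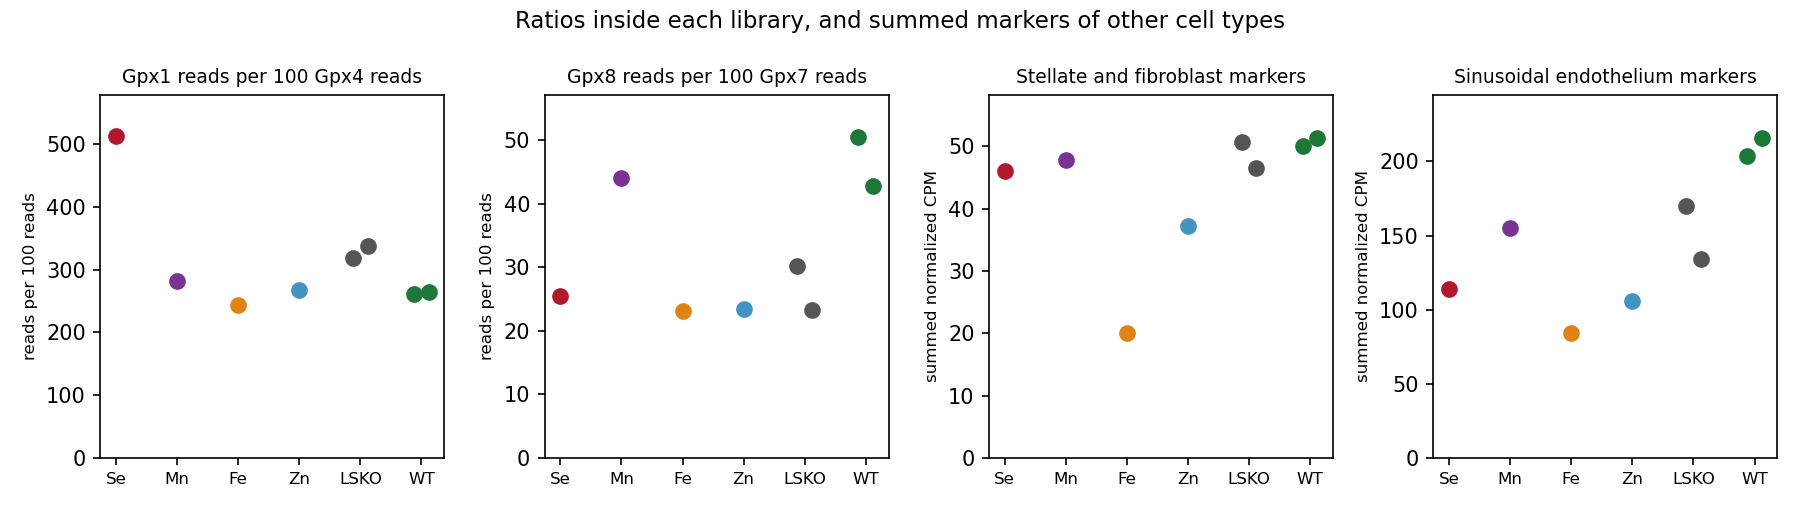
Reads of Gpx1 per 100 of Gpx4, reads of Gpx8 per 100 of Gpx7, and the summed normalized CPM of stellate cell and of sinusoidal endothelium markers, in each library (dots) by group. Gpx1 per 100 Gpx4 reads is 512 with selenite, Gpx8 per 100 Gpx7 reads is highest in WT (50.6 and 42.9), and both marker sums are lowest with iron (20 and 84.0).

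The other selenoprotein genes give the setting of the Gpx1, Gpx3 and Gpx4 changes. Of 20 listed, 18 were tested, and with selenite 4 were called higher than in untreated LSKO cells and none lower, with a median log2 fold change of 0.28. Selenow, a small redox selenoprotein, rose by 1.21 (standard error 0.0909, adjusted p = 1.63e-05, edgeR's quasi-likelihood test), close to Gpx1. It had 243 normalized CPM with selenite, against 107 and 103 in the untreated LSKO libraries. Selenoh, a nuclear selenoprotein, was at 0.73, Selenop, the plasma carrier of selenium, at 0.59, and Msrb1, which repairs oxidized methionine, at 0.51. Selenop shares 439 exon bases with a gene on the opposite strand. Gpx1, Gpx3 and Selenow were the selenoprotein genes called with a log2 fold change over 1.

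With zinc 1 of the 18 was called higher, Selenow at 0.52, beside Gpx4 at 0.49. Txnrd1, the cytosolic thioredoxin reductase, was called higher with manganese (0.51) and with iron (0.59) and was at -0.03 with selenite. With manganese Selenoo was called lower, although 998 of its 3744 exon bases lie opposite another gene and the manganese library stood apart in its share of reads in genes, and with iron Dio3 was called higher. Selenow with zinc, Txnrd1, Selenoo and Dio3 with iron were chosen after their values were seen. In untreated LSKO against WT cells 3 of the 18 were called higher and none lower: the thyroid hormone deiodinases Dio1 (2.30) and Dio3 (1.22), and Selenop (0.72), beside Gpx3 at 1.00. Dio1 rested on few reads, 46 and 94 in the LSKO libraries against 20 and 9 in the WT libraries.

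**Figure D5:**
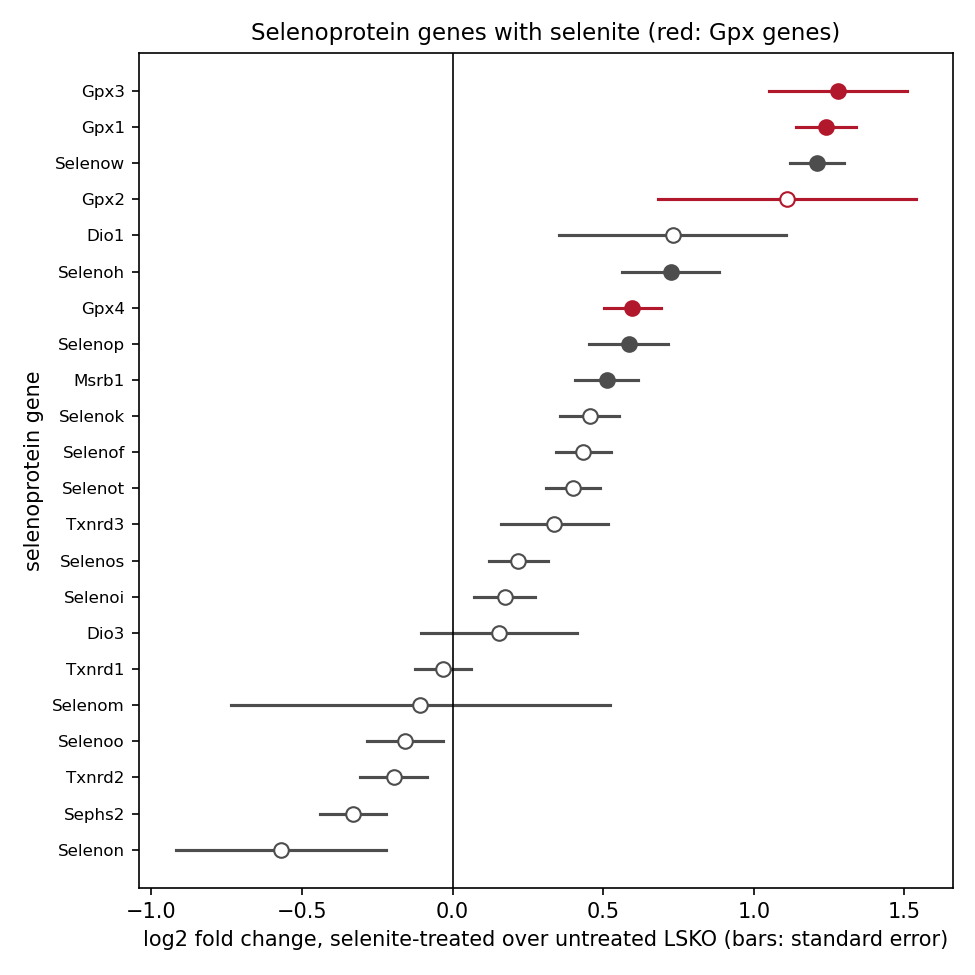
Log2 fold change with selenite over untreated LSKO cells (dots) and its standard error (lines) for the 4 selenocysteine glutathione peroxidases (red) and 18 other selenoprotein genes (grey), ordered by size. Filled dots are called: Gpx3, Gpx1, Selenow, Selenoh, Gpx4, Selenop and Msrb1, from 1.28 down to 0.51.

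None of the 8 genes that make and insert selenocysteine, such as Secisbp2 and Eefsec, was called with selenite by edgeR, 1 was higher at an unadjusted p under 0.05 (19.8% of all genes were), and their median log2 fold change was -0.09. Of 10 genes that supply and recycle glutathione, the substrate of these enzymes, 9 were tested. Glrx, a glutathione-dependent reductase of disulfides, was called higher (0.73) and Oplah, which returns oxoproline to glutamate, lower (-0.54), although 681 exon bases of Oplah lie opposite another gene. The median was 0.19. Gclc, the rate-limiting enzyme of glutathione synthesis, was at 0.33 and Gsr, which reduces oxidized glutathione, at -0.03, neither called.

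The other peroxide-removing enzymes were also tested, all 7. With selenite Prdx1 (0.74, adjusted p = 0.000357) and Prdx3 (0.63, adjusted p = 0.0011), peroxiredoxins of the cytosol and of mitochondria, were called higher by edgeR's quasi-likelihood test, none was called lower and the median was 0.43. Prdx1 and Prdx3 carry no selenocysteine. Prdx1 had 2463 normalized CPM with selenite, against 1484 and 1469 in the untreated LSKO libraries, and 1546 and 1517 in the WT libraries. Its selenite library was the highest of the 8, as for Gpx1. Catalase (Cat) was at 0.10. In LSKO against WT cells none of the 7 was called by edgeR, and p before adjustment was under 0.05 for 1 higher and 1 lower gene, beside 16% of all genes higher and 12.8% lower. In the glutathione list Glrx was called higher (0.81) and Slc7a11, the cystine importer, lower (-0.80).

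Of 8 hepatocyte markers 4 were called higher with selenite, and they summed to 48600 normalized CPM, against 28000 and 35700 in the untreated LSKO libraries. Alb alone had 43250 of this sum, against 25120 and 31470. Apoa1 (0.50), Hnf4a (0.00), Cps1 (-0.02) and Tat (-0.08) were not called. Kupffer cell and macrophage markers summed to 142, against 94.7 and 114, with 2 of 8 called higher. Endothelial markers summed to 114, against 170 and 134, with 5 of 8 called lower, and stellate markers to 46.0, against 50.7 and 46.5, with 3 of 10 called lower. Dcn, which was not called, had 27.5 of the stellate sum, against 22.1 and 22.9. These sums stand beside the changes of Gpx1, Gpx3, Gpx4 and Gpx7 with selenite, and their part in them was not tested.

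How alike the members were among themselves, and which other genes followed them, was described by Pearson correlations of log2 normalized CPM over the 8 libraries, which share culture, scaling and, for the LSKO libraries, genotype. Gpx1 was closest to Gpx3 (0.88) and Gpx4 (0.82). Gpx7 was closest to Gpx1 (0.70), a selenocysteine form, and was at 0.57 with Gpx8. Gpx2 and Gpx8 ran opposite, at -0.60. Gpx8 was near 0 with Gpx1 (0.09) and Gpx4 (0.00).

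Among 9953 protein-coding genes with at least 100 counts per library on average, those most like Gpx1 were Skp1a (0.988), a ubiquitin ligase subunit, Gfer (0.986), a sulfhydryl oxidase, and Cops4 (0.982), of the COP9 signalosome. For Gpx3 they were Rarres1 (0.986), Cmas (0.977), which activates sialic acid, and Brcc3 (0.972), a deubiquitinase. For Gpx4 they were Serinc1 (0.989), Nfkbiz (0.982), a nuclear IκB protein, and Acot9 (0.974), a mitochondrial thioesterase. All 9 had their highest level with selenite, which follows from their choice by likeness to Gpx1, Gpx3 and Gpx4, themselves highest there.

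For Gpx2 the closest were Gzf1 (0.982), a zinc finger protein, and the glucuronosyltransferases Ugt2b34 (0.972) and Ugt2b35 (0.97), whose close relatives may share reads. For Gpx7 they were S100a13 (0.979), a calcium-binding protein, Hmgn5 (0.979), which binds nucleosomes, and Itga1 (0.978), a collagen-binding integrin. Each was highest with selenite and lowest with iron, as was Gpx7. For Gpx8 they were Calcrl (0.974), a receptor for adrenomedullin, Rab8b (0.968), a small GTPase of vesicle traffic, and Gimap6 (0.966). Each was highest in a WT library and lowest with iron, as was Gpx8. These highs and lows again follow from the choice by likeness. The sets named for the 6 members did not share a gene.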

How the data were processed

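RNA-seq counts of 8 libraries in 6 groups were used. The deposited values are raw read counts per gene. Per the labels' processing notes and the study's methods, the authors trimmed reads with Trimmomatic, aligned them with HISAT2 to GRCm38, counted them with HTSeq and ran DESeq2. Which strand and alignment quality settings and which annotation release applied is not given in the sources used here. Reads in no gene (4.48% with manganese, 42.3% to 45.7% in the others) and the other summary counts were left out of library sizes. All 55450 identifiers matched GENCODE M21, which gave symbols, coordinates and coding sequences.

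Genes with at least 80 counts in all (15468) were fitted together over 6 groups in edgeR 4.0.16 (R 4.3.3) with TMM factors (0.867 with selenite, 0.969 to 1.06 in the others) and the quasi-likelihood F-test, with p adjusted by Benjamini-Hochberg over all genes. The fit left 2 residual degrees of freedom plus 8.53 from moderation, and the spread of the WT and LSKO pairs stood in for that of single libraries (biological coefficient of variation 8.29%). Counting error alone would give a chi-square near its degrees of freedom, and replicates gave 5.98 (WT) and 13.3 (LSKO) per degree. Standard errors are log2 fold changes over the root of F, and intervals at 95% use 2 plus 8.53 degrees of freedom. Poisson intervals cover counting error only. The script was tested on simulated counts.

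The members, gene lists and tests were chosen with earlier results of these data known. Genes named are the 6 members, Gpx5, Gpx6 and Gpx pseudogenes, Slc39a8, up to 4 called genes of each list with the largest changes with selenite or in LSKO against WT, and the 3 genes most correlated with each member. Other names were chosen after their values were seen (Gclc, Gsr, Cat, Secisbp2, Eefsec, Txnrd1, Selenoo, and Selenow with zinc and Dio3 with iron). Alternatives were DESeq2 1.42.0, other scalings and filters, correcting transcript length and GC content (robust splines, MASS 7.3.60.0.1), libraries left out, other thresholds and a replicate block. After the data were seen, Gpx4 and Gpx4-ps2 were summed, the 4 untreated libraries joined, the block crossed and summed exon length used in the correction and for levels per kb.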

Additional observations from a re-analysis of the deposited data

How the results depend on the processing

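Of 822 values of single members under an alternative, 768 kept their direction and their side of the threshold, 12 gained a call, 17 lost one and 25 turned round, all 25 of them not called. With selenite against untreated LSKO cells the count of 3 members called higher was 2 with library totals alone, which lower the median of all genes by 0.24 there, and when 4 untreated libraries were joined. The number of members called moved by more than 1.5 times as follows. Manganese against untreated LSKO cells had 1 with the length and GC correction and 1 with no minimum fold change, and zinc had 1 with no minimum fold change, with Gpx4-ps2 reads added or with summed exon length in the correction, and 0 to 1 over the libraries left out. LSKO against WT cells had 2 with no filter and 2 with no minimum fold change, and 0 to 1 over the libraries left out. Selenite against zinc had 0 to 2 over those. Within that limit, selenite against manganese gained Gpx7 (0.734) with TMM factors from genes with no exon opposite another gene, which lost Gpx4 (0.485) against iron. Gpx4 was also lost with library totals alone against iron (0.302) and against WT (0.327), and against iron with any untreated library left out (0.494). Gpx7 against iron and Gpx2 against WT were lost in DESeq2 (1.12 and 1.95), and Gpx8 against WT was gained with either length and GC correction (-1.11 and -1.13).

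For untreated LSKO against WT cells the replicate number as a block left 1 member called, as without it, and so did crossed numbers. Deviations of same-numbered libraries had a correlation of -0.12. With 2 untreated libraries per genotype, this cannot decide whether a shared number pairs them. The log2 fold change of Gpx4 there, 0.00294, turned to -0.00257 with median-ratio factors and in DESeq2, -0.0286 with library totals, -0.0159 with no filter, -0.01 with filterByExpr, -0.0333 with the length and GC correction, -0.0637 with summed exon length, -0.0281 without LSKO replicate 2 (range -0.0415 to 0.0896 over the libraries left out), -0.00429 in the 4 untreated libraries alone, -0.00393 with either block and -0.0404 with the pseudogene. Gpx7 turned to 0.0105 without WT replicate 1 (range -0.0255 to 0.0271 over the libraries left out). Gpx8 with selenite against untreated LSKO cells turned to -0.233 with the correction, -0.269 with summed exon length and -0.0702 with the joined control. Gpx3 with manganese ran from -0.294 to 0.281 over the libraries left out, Gpx7 with zinc to -0.00455 with library totals and Gpx8 with zinc ran from -0.265 to 0.0582 over the libraries left out. Between metals, library totals turned Gpx4 to -0.0179 (selenite against manganese) and -0.0504 (against zinc) and Gpx2 to -0.106 (against iron), which was -0.0465 with summed exon length. The causes were not tested.

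Over all genes, the count called with selenite against untreated LSKO cells was 2717, and 1649 with DESeq2, 1345 with the length and GC correction, 1586 with summed exon length, 831 with the joined control and 4132 with no minimum fold change. Transcript length and GC content went with 33.2% of the variance of those changes. For selenite against zinc the count was 451, and 286 with DESeq2, 32 with the correction, 1267 with library totals 0 without either WT library, and 1275 and 1280 without LSKO replicate 1 or 2. Per kb of all exons, Gpx2 minus Gpx8 turned to -0.699 normalized CPM per kb with zinc and -0.235 with iron. Metal groups have 1 library each, so their own spread was not measured, and Gpx2 and Gpx8, at 11 to 81 reads, were the members most limited by depth.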
